A study of Mus musculus with 2 samples.

Results

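The blood vessels of the pituitary were followed through 10 genes that mark endothelial cells, the cells that line every vessel. The genes were chosen by name, as markers in general use: Pecam1, Cdh5, Emcn, Plvap, Kdr, Flt1, Tek, Tie1, Egfl7 and Erg. Earlier results of these data were already known when these genes and the limits used below were chosen. All 10 were found among the 47069 genes of the table, and all 10 reached a mean of 1 CPM over both libraries, where CPM is the gene's count per 1000000 counts of the library. Bulk RNA-seq had been performed on 2 samples of primary cells from whole pituitaries of randomly cycling female C57BL/6 mice aged 10 to 12 weeks, with no transgene or drug named in the labels. Each sample held 500000 to 700000 cells pooled from 5 glands that had been taken apart by enzymes (collagenase, then pancreatine). The study describes plating in a serum-containing medium, but states that glands for bulk RNA-seq were acutely dissociated and stored immediately. One sample was stored at once in RNA-Best, a buffer meant to preserve RNA inside intact single cells. The other was stored in RNAlater, a commercial reagent in wide use, which was the reference but leaves no intact cells for single-cell work. There was 1 library for each stabilizer, of 53915047 counts in RNA-Best and 44917492 in RNAlater. With a single library on each side, no difference below could be set against replicates or tested. The stabilizer, the pool of mice and the preparation of the library cannot be told apart, and the sources used here do not say whether both samples came from the same pool of dissociated cells. All intervals are at the 95% level and describe counting error alone. PCR copies of a molecule were not told apart, so the intervals may be too narrow even for that.

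The anterior pituitary is among the most densely vascularised endocrine tissues. Its capillaries are fenestrated, meaning that their endothelial wall is pierced by small pores closed by a thin diaphragm, through which hypothalamic hormones arrive and pituitary hormones leave. Endothelial cells depend on 2 receptor systems: vascular endothelial growth factor (VEGF) acts through the tyrosine kinases encoded by Kdr and Flt1, and the angiopoietins act through that encoded by Tek, with Tie1 as its partner. Their identity is held by transcription factors of the ETS family, Erg among them, which bind DNA at the core letters GGAA. In a bulk sample, fewer endothelial cells and less endothelial RNA per cell cannot be told apart.

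RefSeq promoters (250 bases before to 50 bases after a start site, build GRCm38.p6) were matched for 7 of the 10 genes, with 11 start sites in all. The 4 below are shown because Erg and Kdr had the lowest ratios between the libraries, Egfl7 had the highest, and Tie1 holds the most ETS cores, a choice made after the values were seen. Each is written 5′ to 3′ on the strand of its gene, and capitals mark GGAA on either strand, read as TTCC on the other. Erg, first of 3 start sites, chr16:95586544-95586843, minus strand:
Erg: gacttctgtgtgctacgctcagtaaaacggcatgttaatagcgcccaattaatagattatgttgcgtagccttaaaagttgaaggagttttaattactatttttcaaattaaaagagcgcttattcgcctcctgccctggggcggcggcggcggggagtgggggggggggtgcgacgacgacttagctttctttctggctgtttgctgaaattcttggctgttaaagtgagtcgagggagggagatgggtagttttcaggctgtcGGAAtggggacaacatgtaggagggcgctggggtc
Kdr, chr5:75978406-75978705, minus strand:
Kdr: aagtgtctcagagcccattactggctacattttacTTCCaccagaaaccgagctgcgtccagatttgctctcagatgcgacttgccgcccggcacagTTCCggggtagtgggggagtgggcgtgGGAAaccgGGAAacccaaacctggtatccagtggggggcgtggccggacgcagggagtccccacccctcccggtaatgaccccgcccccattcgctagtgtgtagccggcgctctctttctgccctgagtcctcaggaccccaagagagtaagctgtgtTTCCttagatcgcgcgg
Tie1, chr4:118489800-118490099, minus strand:
Tie1: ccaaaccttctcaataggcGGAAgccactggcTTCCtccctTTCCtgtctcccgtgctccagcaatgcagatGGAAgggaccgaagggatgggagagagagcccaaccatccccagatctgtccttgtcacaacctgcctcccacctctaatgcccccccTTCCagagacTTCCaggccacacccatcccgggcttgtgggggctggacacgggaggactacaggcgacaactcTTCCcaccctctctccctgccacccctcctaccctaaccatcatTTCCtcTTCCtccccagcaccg
Egfl7, second of 3 start sites, chr2:26583615-26583914, plus strand:
Egfl7: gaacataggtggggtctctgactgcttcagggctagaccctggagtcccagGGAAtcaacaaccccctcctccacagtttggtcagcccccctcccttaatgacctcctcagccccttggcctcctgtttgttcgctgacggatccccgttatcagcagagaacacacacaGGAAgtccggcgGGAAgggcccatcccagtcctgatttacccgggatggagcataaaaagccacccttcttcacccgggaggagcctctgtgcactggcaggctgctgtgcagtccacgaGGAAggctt
The core occurred 9 times in the Tie1 window, 5 times in that of Kdr, 4 times in this window of Egfl7 and 1 time in this window of Erg. All 11 member windows held GGAA, but so did 96.0% of 32851 promoters of the same length, with a median of 3 per window. The longer ETS motif CCGGAAGT or CAGGAAGT, counted on both strands and containing the core, was found in 1 of the 11 windows, that of Egfl7 printed above, and in 7.07% of all promoters. The motif AACAGGAA, which joins the core to letters bound by forkhead factors, was found in 2 windows, of Emcn and of the first Egfl7 start site, and in 2.65% of all promoters. These are matches of letters only.

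Levels of 9 of the 10 endothelial genes were lower in RNA-Best than in RNAlater, and the counting interval of the other, Egfl7, included no difference by CPM. Of the 16504 genes that reached a mean of 1 CPM, 67.0% were lower in RNA-Best, so the direction alone was common. By a limit of 2-fold, chosen with earlier results of these data known, 6 of the 10 were lower, against 4.99% of all genes. They were Erg, Kdr, Flt1, Cdh5, Tie1 and Pecam1. None of the 10 was 2-fold higher, against 0.273% of all genes. The counting interval of each of these 6 lay wholly beyond 2-fold by CPM. The count was 3 with DESeq2 size factors, 2 (Erg and Kdr) after the trend of all genes on the longest transcript was subtracted, where 0.566% of genes passed, and 3 (with Flt1) after that on the median transcript, where 1.76% did. Together the 10 genes took 869 CPM in RNAlater and 435 CPM in RNA-Best. The median log2 ratio of RNA-Best to RNAlater, with 0.5 CPM added to each level, was -1.13 over the 10 genes and -0.18 over all genes. The plot of levels shows the same genes pair by pair.

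**Figure D1:**
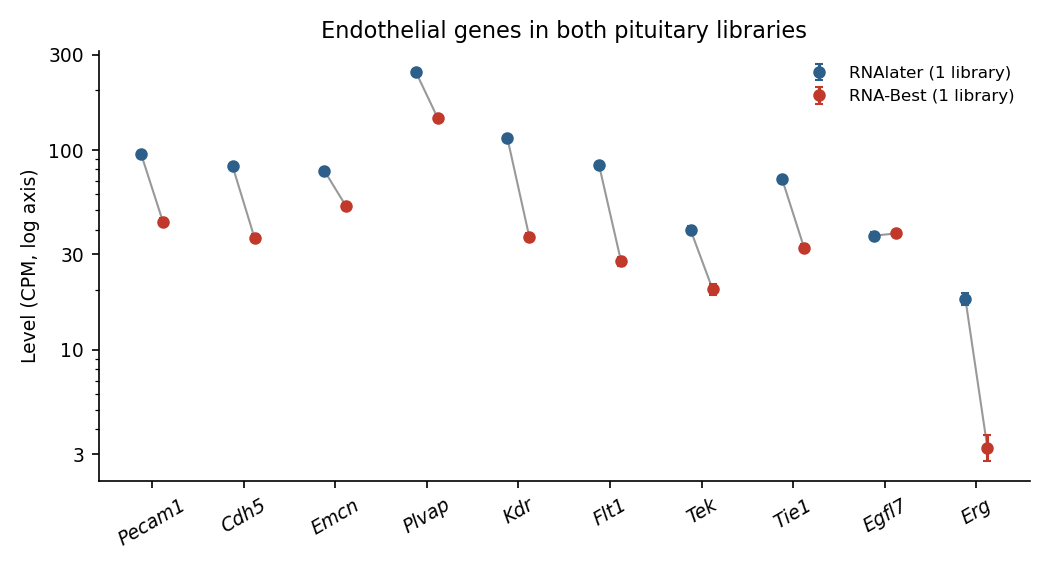
Level of each of the 10 endothelial genes in CPM (log axis) in the RNAlater library (blue) and the RNA-Best library (red), with 1 library each; bars are exact Poisson 95% intervals of counting error, most of them smaller than the points. All genes except Egfl7 sit lower in RNA-Best, and Erg drops furthest, from 17.9 to 3.23 CPM.

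Among the surface and junction genes, Plvap and Emcn differed least. Plvap (ENSMUSG00000034845.5, chromosome 8, 71497765-71511752, GRCm38) encodes the protein of the diaphragms that close the fenestrae. It was counted at 246 CPM in RNAlater and 144 CPM in RNA-Best, a level 1.70-fold higher in RNAlater (interval 1.66 to 1.76). Emcn (ENSMUSG00000054690.17, chromosome 3, 137341067-137432185) encodes endomucin, a sialoglycoprotein of capillary and venous endothelium. It stood at 79.0 CPM in RNAlater and 52.2 CPM in RNA-Best, 1.51-fold higher in RNAlater (1.44 to 1.59). Neither reached 2-fold, and no other of the 9 lower genes differed less. The ratio of Emcn to Plvap counts was 0.321 in RNAlater and 0.362 in RNA-Best, a log2 difference of 0.17 (0.09 to 0.26). Reads of Gtpbp3, which overlaps Plvap on the opposite strand, came to 854 in RNAlater and 1002 in RNA-Best, and the strand setting of the counting was not stated.

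Pecam1 and Cdh5 differed more. Pecam1 (ENSMUSG00000020717.19, chromosome 11, 106654217-106750628) encodes an adhesion molecule of the endothelial cell border that platelets and leukocytes also carry. Its level was 95.9 CPM in RNAlater and 43.7 CPM in RNA-Best, 2.19-fold higher in RNAlater (2.09 to 2.31). Cdh5 (ENSMUSG00000031871.8, chromosome 8, 104101625-104144511) encodes VE-cadherin, the adhesion molecule of endothelial adherens junctions. It had 82.9 and 36.3 CPM, 2.29-fold higher in RNAlater (2.16 to 2.42). The ratio of Pecam1 counts to Cdh5 counts was 1.16 in RNAlater and 1.20 in RNA-Best, and the log2 difference between these ratios, 0.06 (interval -0.05 to 0.17), was within counting error.

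By CPM, the VEGF receptors were lower still. Kdr (ENSMUSG00000062960.10, chromosome 5, 75932827-75978458) encodes the receptor that carries most VEGF signalling in endothelium. It had 115 CPM in RNAlater and 36.6 CPM in RNA-Best, 3.13-fold higher in RNAlater (2.97 to 3.30). Flt1 (ENSMUSG00000029648.13, chromosome 5, 147561604-147726011) encodes a receptor that binds VEGF tightly and, in a shortened secreted form, traps it. It had 84.1 and 27.8 CPM, 3.03-fold higher in RNAlater (2.85 to 3.22). Counts per gene do not separate the secreted form from the receptor. The ratio of Kdr to Flt1 counts was 1.36 in RNAlater and 1.32 in RNA-Best, a log2 difference of -0.05 (-0.16 to 0.07).

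The angiopoietin receptors differed less than the VEGF receptors. Tek (ENSMUSG00000006386.15, chromosome 4, 94739289-94874976) encodes Tie2, the receptor of the angiopoietins. It had 39.7 CPM in RNAlater and 20.1 CPM in RNA-Best, 1.98-fold higher in RNAlater (1.83 to 2.14), just short of the 2-fold limit. Tie1 (ENSMUSG00000033191.14, chromosome 4, 118471191-118490061) encodes the related receptor that pairs with it. It had 71.2 and 32.3 CPM, 2.21-fold higher in RNAlater (2.08 to 2.34). The ratio of Tek to Tie1 counts was 0.558 in RNAlater and 0.622 in RNA-Best, a log2 difference of 0.16 (0.02 to 0.29). The ratio of Kdr to Tek counts moved further, from 2.88 in RNAlater to 1.82 in RNA-Best, a log2 difference of -0.66 (-0.79 to -0.53). Such ratios, computed for 7 pairs chosen after the levels were seen, are taken within each library, so they do not depend on how the libraries were scaled.

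Erg and Egfl7 were the ends of the range. Erg (ENSMUSG00000040732.18, chromosome 16, 95359169-95586593) encodes the ETS factor that maintains endothelial identity. It had 805 counts in RNAlater and 174 in RNA-Best, which are 17.9 and 3.23 CPM, a level 5.55-fold higher in RNAlater (4.71 to 6.58). Its log2 ratio was -2.31 with 0.5 CPM added and -2.47 without, and 3 of the 16504 genes had a lower ratio. The ratio of Erg to Kdr counts was 0.156 in RNAlater and 0.0882 in RNA-Best, a log2 difference of -0.83 (-1.08 to -0.58). Fli1, a close ETS relative of Erg, had 9.37 CPM in RNAlater and 6.35 CPM in RNA-Best, a log2 ratio of -0.53.

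Egfl7 (ENSMUSG00000026921.18, chromosome 2, 26580014-26593120) encodes a small protein that endothelial cells secrete into their matrix. It had 37.2 CPM in RNAlater and 38.3 CPM in RNA-Best, a log2 ratio of 0.04 (-0.05 to 0.13 without added CPM), and the ratio was 0.16 to 0.22 under 3 other scalings of the libraries. The ratio of Egfl7 to Plvap counts thus differed between the libraries, at 0.151 in RNAlater and 0.265 in RNA-Best, a log2 difference of 0.81 (0.71 to 0.91). The Egfl7 counts held fractions of reads, as did those of Pecam1 and Flt1. The gene also overlaps Agpat2 on the opposite strand, counted at 228 in RNAlater and 273 in RNA-Best. Egfl7 hosts the endothelial microRNA gene Mir126a, whose hairpin (chromosome 2, 26591357-26591429) lies within 9 of the 19 annotated Egfl7 transcripts and over an exon of 1 of them. Its mature RNA is shown with the seed, bases 2 to 8, in capitals (RefSeq, GRCm38.p6).
mmu-miR-126a-3p: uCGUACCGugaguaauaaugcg
Mir126a and the antisense Mir126b were listed at 0 in both libraries, which were made from poly(A) RNA and would not hold the mature form.

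Because longer transcripts give more reads, levels of different genes were compared only as CPM per kb of the longest annotated transcript. Plvap was the highest in both libraries, at 124 CPM per kb in RNAlater and 72.6 in RNA-Best. In RNAlater it was followed by Pecam1 (27.9), Emcn (22.4), Cdh5 (20.8), Egfl7 (19.97), Kdr (19.3), Tie1 (16.8), Flt1 (12.2), Tek (8.54) and Erg (5.52), all in CPM per kb. The counting intervals of Cdh5 and Egfl7, and of Egfl7 and Kdr, overlapped. In RNA-Best the order in CPM per kb was Plvap, Egfl7 (20.5), Emcn (14.8), Pecam1 (12.7), Cdh5 (9.08), Tie1 (7.62), Kdr (6.18), Tek (4.32), Flt1 (4.03) and Erg (0.993), and the intervals of Tek and Flt1 overlapped. The order below Plvap depends on the length used. With the median length of annotated transcripts, Egfl7 ranked 2 of 10 in both libraries, at 54.5 CPM per kb in RNAlater and 56.0 in RNA-Best. Flt1, at 41.3 CPM per kb in RNAlater, then stood above Pecam1 at 32.0. By the union of exons, Egfl7 had 10.4 CPM per kb in RNAlater, below Tie1 at 14.5, and 10.7 in RNA-Best. Plvap was the highest of the 10 in both libraries by the longest transcript, the median transcript and the union of exons.

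Transcript length moved with these differences. Among the genes tested, the ratio declined with the length of the longest annotated transcript, from a median log2 ratio of 0.28 at up to 1 kb to -0.90 over 10 kb. The endothelial genes run from 1.87 kb (Egfl7) to 6.90 kb (Flt1). Across the 10 genes Spearman's rank correlation between log2 ratio and length was -0.50, and -0.80 over the 9 without Erg. Erg was left out after its value was seen. Over 41 other endothelial genes, described below, the correlation was -0.53. Genes are not independent replicates, and these values describe the lists only. Against genes of like length, all 10 lay below the median of the genes in their own length class, and 9, all but Egfl7, lay below its lower quartile. Egfl7 was near its class median, at 0.04 against 0.07, and its counting interval included that median.

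Plvap, at 1.99 kb, had a log2 ratio of -0.77 where the 2713 genes of 1 to 2 kb had a median of 0.07, and 20 of them were lower. Egfl7, in the same class, lay at 0.04. Erg, at 3.25 kb, had the lowest ratio of the 2940 genes of 3 to 4 kb, whose median was -0.22. In that class 21 genes were lower than Cdh5, 31 lower than Pecam1 and 396 lower than Emcn. Among the 3463 genes of 4 to 6 kb, with a median of -0.40, 3 were lower than Kdr, 102 lower than Tie1 and 225 lower than Tek. Flt1 was above 44 of the 1757 genes of 6 to 10 kb, whose median was -0.65.

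After the trend of all genes on the longest transcript length was subtracted, the median log2 ratio of the 10 genes was -0.85. Erg lay at -2.10, Kdr at -1.09, Flt1 at -0.95 and Egfl7 at 0.04. Pecam1 and Cdh5 each lay at -0.89, so Flt1 was then close to them. Tie1 lay at -0.80, Plvap at -0.74, Tek at -0.57 and Emcn at -0.35. GC content of the longest transcript ranged from 40.7% (Emcn) to 60.6% (Plvap), with Erg at 50.8% and a median of 49.6% over all genes. A part of length beyond this subtraction was not tested.

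**Figure D2:**
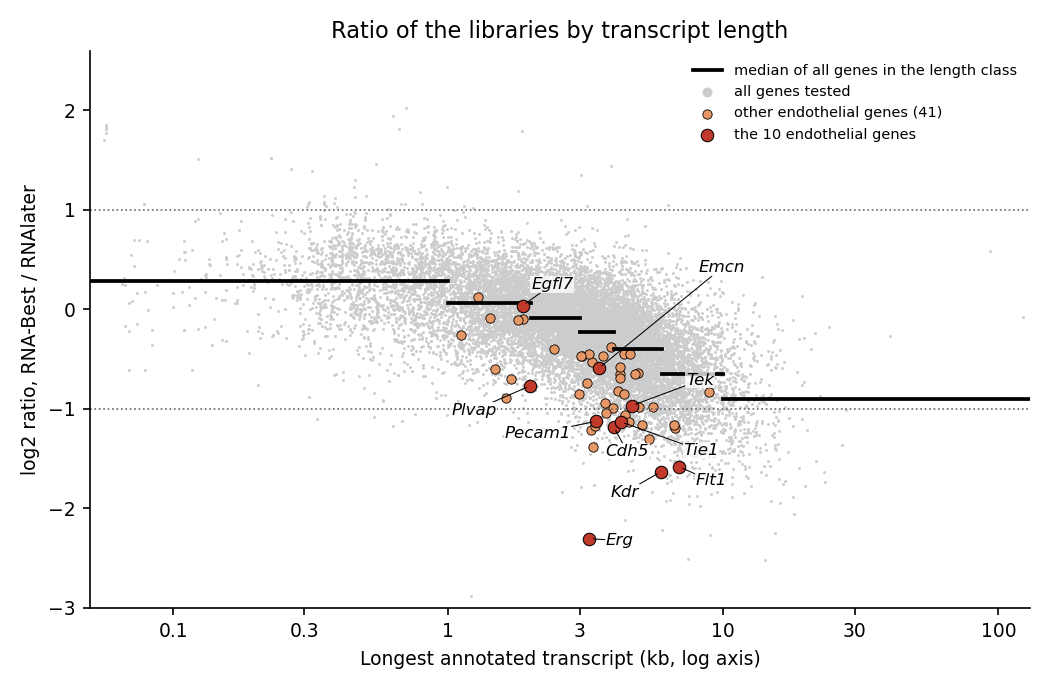
Log2 ratio of RNA-Best to RNAlater against the length of the longest annotated transcript (kb, log axis) for all genes that reached a mean of 1 CPM (grey), 41 other endothelial genes (orange) and the 10 endothelial genes (red); black bars are medians of all genes in 7 length classes and dotted lines mark 2-fold. Erg, at 3.25 kb and -2.31, lies below every gene of its class, and Egfl7 lies near its class median.

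Other genes of the VEGF and angiopoietin system were grouped by role. Of 12 listed, 11 reached 1 CPM, and these are 7 ligands and 4 receptors or receptor partners. All 4 of the latter were at least 2-fold lower in RNA-Best by CPM, against 4.99% of all genes, and 3 of them, all but Nrp1, under TMM, DESeq2 size factors and the total without the 2 most abundant genes, against 2.63%, 2.54% and 3.23%. Among genes of their own lengths the share was 2.01% at 3 to 4 kb (Nrp1), 20.9% at 6 to 10 kb (Flt4, Nrp2) and 42.4% over 10 kb (Ptprb). Flt4, the receptor of VEGF-C and VEGF-D, had 25.6 CPM in RNAlater and 7.29 CPM in RNA-Best. The VEGF coreceptors Nrp1 (63.0 and 29.4 CPM) and Nrp2 (70.5 and 23.1 CPM) and Ptprb, the phosphatase that restrains Tie2 (46.4 and 12.6 CPM), had log2 ratios of -1.09, -1.59 and -1.84.

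None of the 7 ligands was 2-fold lower by CPM, against 4.99% of all genes, and the direction of the smaller ligand ratios depended on the scaling. With the receptors included, all 11 were lower by CPM, against 67.0% of all genes. Under TMM, DESeq2 size factors and the total without the 2 most abundant genes, 9, 8 and 9 of the 11 were lower. Of all genes, 51.3%, 50.3% and 55.4% were lower under these scalings. The log2 ratio was -0.54 for Vegfa, which endocrine and folliculostellate cells of the pituitary are known to make, at 107 CPM in RNAlater and 73.3 CPM in RNA-Best. It was -0.26 for Vegfb, -0.28 for Vegfc, -0.17 for Vegfd and -0.05 for Pgf. Angpt1, the ligand that activates Tie2, had 76.9 and 72.7 CPM and a log2 ratio of -0.08. Angpt2, which endothelial cells themselves release, was the lowest ligand at -0.64 (23.4 and 14.9 CPM). The receptors have longer transcripts, of 3.65 to 11.9 kb, than the ligands, of 1.28 to 4.26 kb. Less the length trend, the log2 ratios still ran from -1.17 to -0.83 for the receptors and from -0.39 to 0.25 for the ligands. This split by role was made after the values were seen.

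Endothelial genes outside the 10 were likewise lower. Of 43 in 5 lists (junction and adhesion, transcription factors, signalling and secreted, arterial, venous), 41 reached 1 CPM, 40 of these were lower in RNA-Best and 10 at least 2-fold lower, against 67.0% and 4.99% of all genes. Under TMM, DESeq2 size factors and the total without the 2 most abundant genes, 37, 37 and 38 were lower. At least 2-fold lower were 4, 4 and 8. Of all genes, 51.3%, 50.3% and 55.4% were lower under these scalings, and 2.63%, 2.54% and 3.23% at least 2-fold lower. The 41 endothelial genes had a median log2 ratio of -0.70 (-0.48 less the length trend). They were below the median of their length class in 40 of 41 cases. The 10 were the transcription factors Bcl6b (-1.39), Sox7 (-1.21) and Ets1 (-1.17), the surface sialomucin Podxl (-1.30), the surface receptor Cd93 (-1.20), the TGF-beta coreceptor Eng (-1.17), the Notch receptor Notch4 (-1.16) and ligand Dll4 (-1.04), the semaphorin Sema3g (-1.13) and the signalling gene Arhgef15 (-1.06). Ets1 was the most abundant of them, at 96.6 CPM in RNAlater and 42.8 CPM in RNA-Best. Less the length trend, Bcl6b (-1.16) alone of the 41 stayed at least 2-fold lower, against 0.566% of all genes. Sox7 was next, at -0.997. By CPM, Icam2, an adhesion molecule with a transcript of 1282 bases, was the exception at 0.13. Cldn5, the tight junction protein claudin-5, lay at -0.08 with 1416 bases. By list, the medians were -0.46 for junction and adhesion, where 7 of 8 genes were lower by CPM and 5 of 8 under each other scaling, -0.67 for transcription factors, -0.82 for signalling and secreted genes, -0.70 for arterial and -0.85 for venous genes. Caveolar genes (Cav1, Cav2, Cavin1 and Cavin2), which other cells express too, had a median of -0.71, with 4 of 4 lower. Genes of barrier-forming brain endothelium had a median of -0.47, with 5 of 6 reaching 1 CPM and Slco1c1 at 4 counts in RNAlater and 5 in RNA-Best.

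The label of these genes was checked against markers of other cells that carry some of them. Of 4 genes of lymphatic endothelium, Prox1 (56.5 CPM in RNAlater and 29.97 CPM in RNA-Best) and Pdpn (67.3 and 53.6 CPM), which other cells also express, reached 1 CPM. Lyve1 was counted 36 times in RNAlater and 25 in RNA-Best, and Ccl21a had less than 1 count in either. Of 5 platelet genes, 1 (Itga2b) reached 1 CPM, and Pf4 was counted 27 times in RNAlater and 52 in RNA-Best. Of 6 lymphocyte genes 3 reached it, and 2 of these were lower, against 67.0% of all genes. Their log2 ratios ran from -0.71 to 0.09. Ptprc lay at -0.43, and Cd79a, with 56 counts in RNAlater and 73 in RNA-Best, lay at 0.09. The list had a summed level of 21.9 CPM in RNAlater and 16.2 CPM in RNA-Best. The T cell genes Cd3e (16 counts in RNAlater and 5 in RNA-Best) and Cd3d (2 and 13 counts) were near 0 in both. Genes of pericytes and smooth muscle, which wrap the vessels, had 7 of 8 lower and 3 of 8 at least 2-fold lower, against 67.0% and 4.99% of all genes, with a median of -0.88 (-0.52 less the length trend) and a summed level of 226 CPM in RNAlater and 126 CPM in RNA-Best. The pericyte receptor Pdgfrb (-1.35), the mural Notch receptor Notch3 (-1.30) and the potassium channel subunit Abcc9 (-1.66) were lowest, and Kcnj8, its channel partner, lay at 0.06. Fibroblast genes had 5 of 5 lower and 2 of 5 at least 2-fold lower, against the same shares of all genes. Their median was -0.66 (-0.57 less the length trend), with summed levels of 594 and 476 CPM. Stem and folliculostellate genes had 6 of 6 lower and 1 of 6 at least 2-fold lower by CPM. Their median was -0.59 (-0.52 less the trend), with summed levels of 444 and 243 CPM. Macrophage genes had 4 of 9 lower, a median of 0.25 (0.04 less the trend) and summed levels of 194 CPM in RNAlater and 211 CPM in RNA-Best. The 5 erythroid genes were all higher in RNA-Best, with summed levels of 1130 CPM in RNAlater and 3200 CPM in RNA-Best, and the 7 hormone genes were all higher. Less the length trend, their medians were 0.70 and 0.32. These lists differ in transcript length, with a median of 1.20 kb for macrophage and 4.76 kb for pericyte genes. The number of lower genes in the pericyte, stem, macrophage, erythroid and hormone lists was the same under each of 3 other scalings. In the fibroblast list it was 4 with DESeq2 size factors. The number at least 2-fold lower stayed 3 for pericyte and 2 for fibroblast genes under each, and was 0 for stem genes. Of all genes, 51.3% (TMM), 50.3% (DESeq2 size factors) and 55.4% (total without the 2 most abundant genes) were lower. At least 2-fold lower were 2.63%, 2.54% and 3.23%. Less the length trend, no pericyte, fibroblast or stem gene was at least 2-fold lower, against 0.566% of all genes. The lowest pericyte gene, Abcc9, and the lowest fibroblast gene each lay at -0.99. Abcc9 and Notch3 fall at 6 to 10 kb, where 20.9% of all genes were at least 2-fold lower by CPM. The part of these cells in the endothelial result was not tested.

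**Figure D3:**
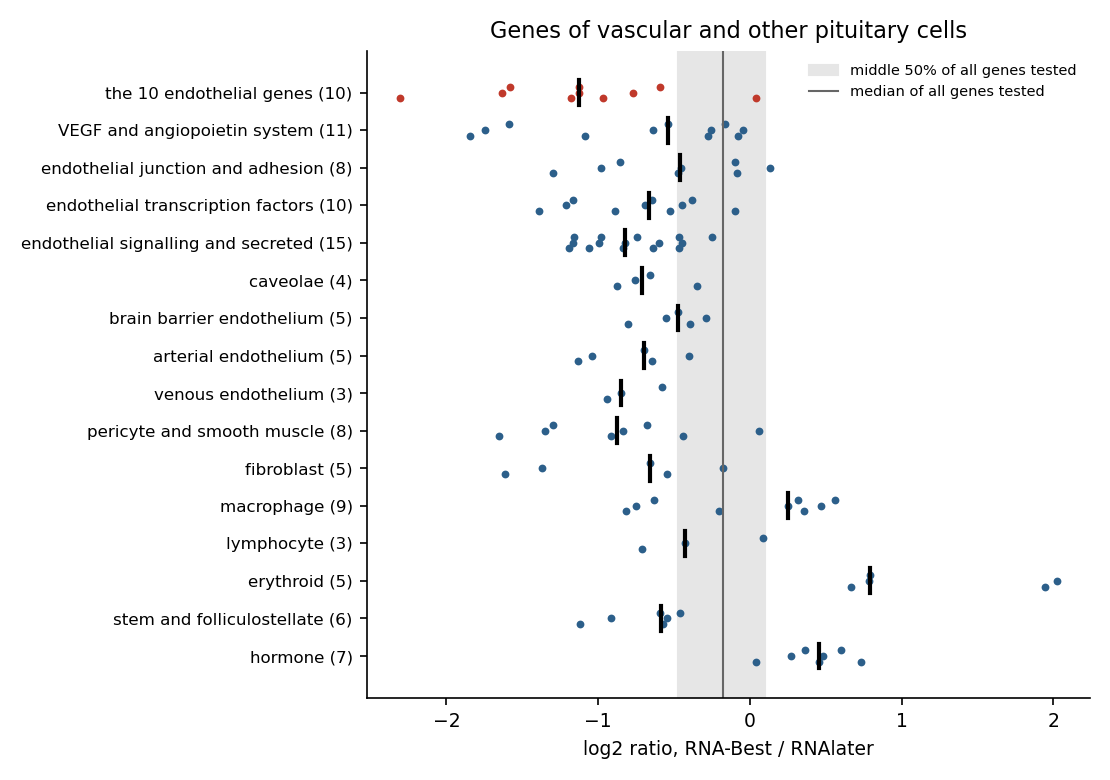
Log2 ratio of RNA-Best to RNAlater for the genes of each list that reached a mean of 1 CPM (points; number of genes in brackets; lists with fewer than 3 such genes left out), with the list median as a black bar and the middle 50% and median of all genes tested in grey. The 10 endothelial genes have a median of -1.13, whereas erythroid and hormone genes lie above 0.

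The 7 hormone genes took 239085 CPM in RNAlater and 307051 CPM in RNA-Best, so the scaling bears on every ratio. Under TMM, DESeq2 size factors, or a total without the 2 most abundant genes, the median of all genes moved from -0.18 to -0.01, -0.00 and -0.06. The same 9 endothelial genes were lower under each, where 51.3%, 50.3% and 55.4% of all genes were. The number at least 2-fold lower was 4, 3 and 5 of 10, against 2.63%, 2.54% and 3.23% of all genes. Kdr, Flt1 and Erg passed 2-fold under each of the 3 scalings. The 10 genes had a median log2 ratio -0.95 from that of all genes by CPM and -0.94 under each of the other 3 scalings, and 9 of the 10 lay below that median.

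**Figure D4:**
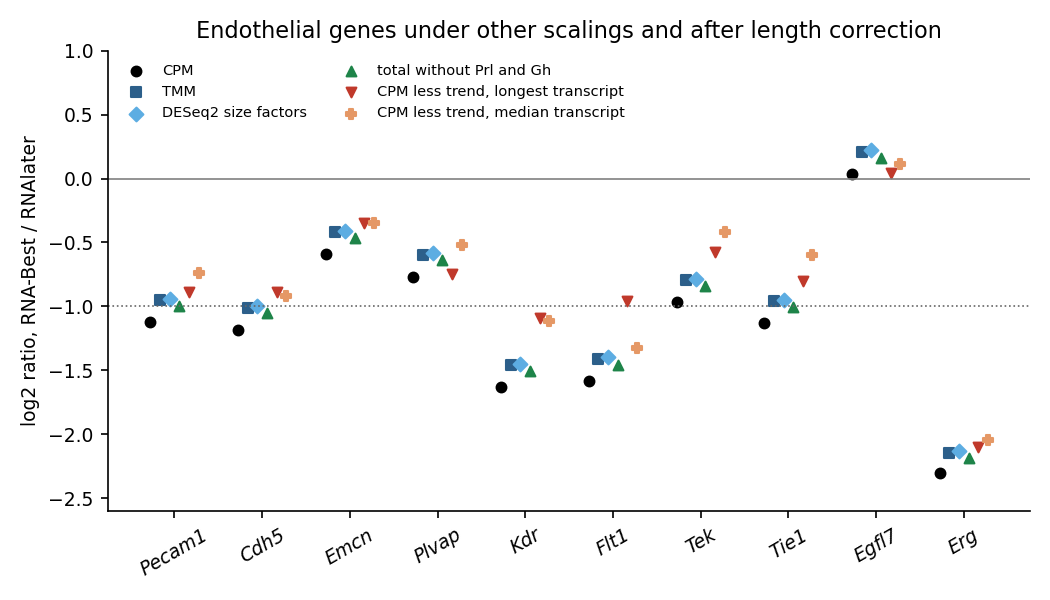
Log2 ratio of RNA-Best to RNAlater for each of the 10 endothelial genes under CPM, 3 other scalings and CPM less the trend of all genes on transcript length; the solid line is 0 and the dotted line 2-fold lower. Erg and Kdr stay beyond 2-fold in every setting shown, and Egfl7 lies between 0.04 and 0.22.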

How the data were processed

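Poly(A) RNA of dissociated mouse pituitary cells was sequenced as single reads in 2 libraries, 1 stabilized in RNA-Best and 1 in RNAlater, grouped by the stabilizer in the labels. The authors deposited a table of estimated counts per Ensembl gene that were not normalized. The submitters' processing notes name STAR 2.5.1b, featureCounts 1.5.0-p1 and mm10. Of the values above 0, 35.4% in RNA-Best and 34.9% in RNAlater were not whole numbers. Some reads were thus counted as fractions, by an option that was not stated. With 1 library per group no test was made. Counts were scaled by column total to CPM, and log2 ratios used 0.5 CPM added and kept genes averaging 1 CPM or more. Counts were rounded for exact conditional binomial intervals (95%) and for scaling by TMM (edgeR 4.0.16) and by DESeq2 1.42.0 size factors. A count of 0 allows up to 3 counts, or 0.0556 CPM in RNA-Best and 0.0668 in RNAlater. Of 47069 identifiers, 46488 matched GENCODE M21 (GRCm38), which gave symbols, coordinates and lengths. LOWESS trends on log10 length (span 0.2) used statsmodels 0.14.6. Intervals for differences between log2 count ratios used a normal approximation. The steps were tested on simulated data. The 10 genes, the 17 other lists and the limits were chosen with earlier results of these data known. Genes named outside the 10 came from each list's ends, its most abundant gene, its genes past 2-fold and the VEGF and angiopoietin list. Fli1, Cldn5 and markers at low counts were chosen after their values were seen. One list gene is not reported here by name.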

Additional observations from a re-analysis of the deposited data

How the results depend on the processing

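No paired analysis was possible because a single library stood for each stabilizer. Of 11 alternatives, each left 9 of 10 endothelial genes lower in RNA-Best, or 7 of 7 over genes with whole counts, an alternative chosen after the data were seen. The number at least 2-fold lower, 6, was 3 with DESeq2 size factors, 2 after the trend on the longest transcript was subtracted and 3 after that on the median transcript. The median log2 ratio, -1.13, was -0.96 (TMM), -0.94 (DESeq2 size factors), -1.001 (total without the 2 most abundant genes), -0.85 (longest transcript trend) and -0.67 (median transcript trend). The log2 ratio of the summed level, -0.999, was -0.83, -0.81 and -0.87 under the 3 scalings. These shifts follow from the scaling or the subtraction. The level of Plvap per kb in RNAlater was 4.44 times that of the next gene, and 2.27 times with median transcript lengths and 6.28 times with the union of exons. Other pseudocounts (0.1 and 1 CPM), no filter, a filter at 10 CPM and thinning RNA-Best to the RNAlater total left both counts as they were and the median between -1.14 and -1.12. With 174 counts, Erg in RNA-Best had the least depth of the 10.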
